A study of Mus musculus with 12 samples.

Results

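The NRF2 antioxidant response was followed through 10 mouse genes in the hypothalamus. They were chosen by symbol and not by a rule on measured values, although earlier results of these data were known. Nfe2l2 and Keap1 were taken with 8 standard NRF2 target genes, Hmox1, Nqo1, Gclc, Gclm, Txnrd1, Srxn1, Gsr and Slc7a11. All 10 were found among the 78334 Ensembl gene IDs of the deposited count table, and all 10 passed the filter on low counts. A further 90 genes of the same pathway, in 6 lists, were described beside them.

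Nfe2l2 encodes NRF2, a transcription factor that is held in the cytoplasm by KEAP1 and handed to a CUL3 ubiquitin ligase for degradation. Oxidants and electrophiles modify cysteines of KEAP1, NRF2 then escapes degradation, pairs with a small MAF protein and binds antioxidant response elements near genes for glutathione synthesis, thioredoxin recycling, quinone reduction and haem breakdown. The pathway is controlled mainly through the stability of the NRF2 protein, so the level of its target transcripts is the usual RNA readout. In brain tissue many of its target genes are known to be expressed strongly in astrocytes.

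The study sequenced poly-A RNA of whole hypothalamus from male C57BL/6 mice in 12 libraries. Mice in 3 of the 4 groups were injected once with streptozotocin, a toxin of insulin-producing beta cells, at 70 mg/kg on postnatal day 2, and ate a diet with 60% of its energy from fat for 8 weeks from 3 weeks of age. The curcumin group (n = 3) then received curcumin, a turmeric polyphenol, at 50 mg/kg. The garlic group (n = 2) received aged garlic extract at 200 mg/kg. The diabetes group (n = 4) received vehicle only, and the control group (n = 3) received vehicle and a standard diet without the toxin or the fat diet. All were gavaged daily for 28 days. The descriptions give the start of the gavage in 1 place as week 7 of the fat diet and in another as after 11 weeks on the diet, so the age at treatment is uncertain. They do not say that each library came from a separate animal, so the spread between libraries may be partly technical. The question the design poses is whether either plant product moves the diabetic hypothalamus towards the control state, and the NRF2 genes are proposed targets of both.

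Promoter sequence is shown first, because NRF2 acts through a short DNA element. Of the 10 genes, 7 matched an entry in a table of RefSeq promoter windows on GRCm38.p6, each running from 250 bases before the transcription start to 50 bases after it. Hmox1, Gclc and Gsr did not. The core of the antioxidant response element, searched as TGACNNNGC on both strands, was found in a window of 4 of the 7 genes (57.1%), against 18 of the 81 other pathway genes with a window (22.2%) and 13.99% of 27025 genes overall. By window, 12.39% of 32851 windows held it. The 3 matches that lie upstream of the start are printed below with up to 25 bases on either side. Each is written 5′ to 3′ on the strand of its gene, with the matched core in capitals. The Nfe2l2 stretch is at chr2:75704870-75704913 on the minus strand, and its core runs from 240 to 232 bases before the start. The Gclm stretch is at chr3:122245398-122245456 on the plus strand, and the Txnrd1 stretch, from 1 of its 3 windows, is at chr10:82859089-82859147 on the plus strand. In both of these the core lies on the opposite strand, so its reverse complement is in capitals.
Nfe2l2: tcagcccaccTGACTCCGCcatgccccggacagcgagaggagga
Gclm: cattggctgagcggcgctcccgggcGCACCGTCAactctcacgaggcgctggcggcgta
Txnrd1: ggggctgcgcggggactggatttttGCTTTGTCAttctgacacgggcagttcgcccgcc

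The fourth match, in Srxn1, lies 28 to 36 bases after the start. No match was found in the windows of Keap1, Nqo1 and Slc7a11, which says only that these letters are not in those windows. The search word for AP-1, TGANTCA, overlapped none of the 4 matches, although the Srxn1 window holds that word elsewhere. The AP-1 word is in 7.81% of all windows. A match is a description of sequence and shows no binding.

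Library totals ran from 12950017 to 30271706 counts. Scaled to the lowest total, the genes expected to be detected numbered 20133 to 22515 in diabetes and 25766 to 33157 in control libraries. Curcumin libraries had 20917 to 29126, and garlic libraries 33125 and 34719. The diabetes libraries lay below all control and garlic libraries, so group and number of detected genes cannot be told apart in those comparisons. Levels are given as CPM, read counts scaled to a common library size with TMM factors, and differences as log2 fold changes from edgeR's quasi-likelihood test, with p-values adjusted by Benjamini-Hochberg over 25562 genes and a threshold of 0.05. Some libraries stood apart. Curcumin replicate 2 had a summed level of 299 CPM over 23 hypothalamic markers, against 806 and 1762 CPM in the other curcumin libraries, 1196 and 2624 CPM in garlic, 2541 to 4999 CPM in diabetes and 1772 to 2459 CPM in control. Of the 23 markers, 20 were lower in it than in any other library, among them the developmental transcription factors Nkx2-1 at 0.050, Sim1 at 0.149 and Otp at 0.199 CPM. Six3, another such factor, was at 39.0 CPM, inside the 36.4 to 55.0 CPM of the other libraries, and Sst and Agrp were also inside the range of the others. Its oligodendrocyte marker sum of 12144 CPM and its neuron marker sum of 5385 CPM were each the highest of the 12. Tcf7l2, Pou4f1 and Lef1, from a list of 12 thalamus and habenula markers, were at 325, 18.9 and 26.2 CPM in it. The highest values elsewhere were 90.3, 1.097 and 11.2 CPM. Its sum over that list, 772 CPM, was inside the 506 to 925 CPM of the others. Of those 12 markers, 2 were lowest in it. Whether curcumin replicate 2 holds tissue from outside the hypothalamus was not tested. Diabetes replicate 4 carried pituitary transcripts, with a marker sum of 866 CPM against at most 17.5 CPM in any other library, and a blood marker sum of 1758 CPM against at most 504 CPM elsewhere. Control replicate 3 had an astrocyte marker sum of 790 CPM against 2063 CPM or more in every other library. The neuron marker sum was 3528 to 3760 CPM in the diabetes libraries and at least 4076 CPM in all others. Of its 11 markers, 10 had a negative log2 fold change with diabetes against control. Tubb3 went the other way, at 510 to 775 CPM in the diabetes libraries and 364 to 543 CPM in the others. In whole tissue, fewer cells of a type and less RNA per cell cannot be told apart.

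None of the 10 genes passed the threshold in any of the 4 comparisons. With curcumin against diabetes, 0 of 10 were called, where 0.0900% of all genes were. For garlic against diabetes the count was 0 of 10, where 0% of all genes were called. For diabetes against control it was 0 of 10, where 0.0156% of all genes were called, and for curcumin against garlic 0 of 10, where 0% were called. DESeq2 and limma-voom also called 0 of the 10 in every comparison, although DESeq2 gave no adjusted p to Hmox1 and Nqo1 in diabetes against control or to those genes and Nfe2l2 in garlic against diabetes. At an unadjusted edgeR p under 0.05, 1 of the 10 was higher with curcumin than in diabetes (10.5% of all genes were) and 1 of the 10 was higher with garlic than in diabetes (6.90% of all genes were). That gene was Gclc both times. At the same cut 0 of the 10 differed between diabetes and control (12.3% of all genes did) and 0 between curcumin and garlic (1.60% of all genes did). The 3 comparisons with the diabetes group use the same 4 diabetes libraries, so opposite signs in them are not separate observations.

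**Figure D1:**
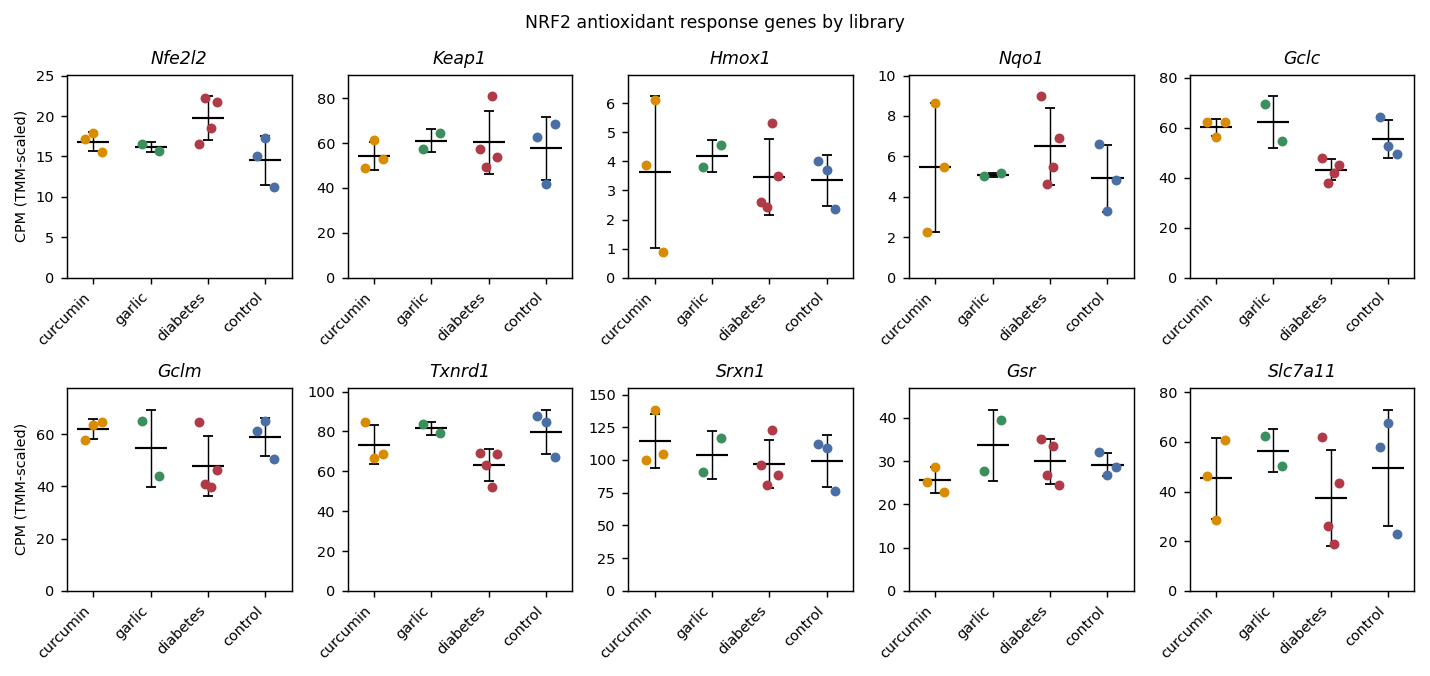
Level of each of the 10 NRF2 genes in TMM-scaled CPM (vertical axis, starting at 0) for the curcumin, garlic, diabetes and control groups. Points are libraries, horizontal bars are group means and error bars are ±1 SD; the 4 diabetes libraries of Gclc, at 37.8 to 47.8 CPM, sit below every library of the other groups.

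Among the regulators, Nfe2l2 (ENSMUSG00000015839) was at a low level, from 11.2 to 22.2 CPM. It had 17.1, 17.9 and 15.5 CPM in the curcumin libraries, 16.6 and 15.7 CPM in the garlic libraries, 16.5, 22.2, 18.5 and 21.8 CPM in the diabetes libraries, and 15.1, 17.2 and 11.2 CPM in the control libraries. The diabetes libraries held the 3 highest values, but the groups overlapped in every comparison. The log2 fold change was -0.23 ± 0.28 (SE) with curcumin and -0.29 ± 0.32 with garlic against diabetes, and 0.44 ± 0.28 with diabetes against control (edgeR adjusted p = 0.765, 0.944 and 0.602). The last has a 95% interval of -0.15 to 1.04. Without control replicate 3, the library poor in astrocyte transcripts and lowest in Nfe2l2, that log2 fold change was 0.29.

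Keap1 (ENSMUSG00000003308), the sensor that restrains NRF2, was about as scattered within groups as between them. It had 48.9, 61.3 and 53.1 CPM in the curcumin libraries, 57.5 and 64.7 CPM in the garlic libraries, 57.2, 49.2, 80.9 and 53.9 CPM in the diabetes libraries, and 62.8, 41.6 and 68.7 CPM in the control libraries. Its lowest and highest libraries, a control and a diabetes library, lie on either side of all the treated ones. Its log2 fold change was -0.15 ± 0.24 with curcumin and 0.02 ± 0.27 with garlic against diabetes, and 0.06 ± 0.24 with diabetes against control. Without control replicate 2 the last was -0.12, and without control replicate 3 it was 0.21, so its sign rests on single libraries. The ratio of Nfe2l2 to Keap1, both per kilobase of exon, averaged 0.566 ± 0.0611 in the curcumin, 0.483 ± 0.0574 in the garlic, 0.624 ± 0.186 in the diabetes and 0.496 ± 0.233 in the control libraries (SD). The curcumin ratios, 0.530 to 0.636, lay just above the garlic ratios, 0.443 to 0.524, and all other pairs of groups overlapped. Among single genes, 4.21% of all genes lay higher and 9.91% lower without overlap with curcumin against garlic. Neither share is for a ratio, and the ratio was not tested.

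Gclc (ENSMUSG00000032350), the catalytic subunit of glutamate-cysteine ligase, which makes the rate-limiting step of glutathione synthesis, was the member whose diabetes libraries stood apart from all others. It had 62.2, 56.3 and 62.3 CPM in the curcumin libraries, 69.6 and 54.8 CPM in the garlic libraries, 47.8, 37.8, 42.0 and 45.3 CPM in the diabetes libraries, and 64.2, 52.8 and 49.5 CPM in the control libraries. The highest diabetes library, at 47.8 CPM, was below the lowest library of any other group, a control library at 49.5 CPM. Curcumin against diabetes gave a log2 fold change of 0.48 ± 0.20 (95% interval 0.05 to 0.91, unadjusted p = 0.0300, adjusted p = 0.242). Garlic against diabetes gave 0.52 ± 0.23 (0.05 to 1.00, unadjusted p = 0.0333, adjusted p = 0.418). Diabetes against control gave -0.36 ± 0.20 (-0.79 to 0.07, unadjusted p = 0.0937, adjusted p = 0.515). None of these passed the threshold, and groups that do not overlap are common in so small a design. Higher values without overlap were found for 5.43% of all genes with curcumin against diabetes and 13.2% with garlic against diabetes, and lower values without overlap for 8.94% with diabetes against control. The curcumin and garlic libraries overlapped, with a log2 fold change of -0.05 ± 0.24 between them.

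The Gclc differences in the 3 comparisons with the diabetes group kept their sign under every alternative run. They spanned 0.43 to 0.58 with curcumin, 0.47 to 0.64 with garlic, and -0.45 to -0.31 with diabetes against control. Leaving out 1 library at a time gave 0.42 to 0.56 with curcumin, 0.34 to 0.69 with garlic and -0.44 to -0.24 with diabetes against control. With diabetes replicate 4 and curcumin replicate 2 both left out, the values were 0.58 with curcumin, 0.64 with garlic and -0.45 with diabetes against control (adjusted p = 0.149, 0.312 and 0.355). The smallest edgeR adjusted p in 610 alternative estimates, each of 1 member in 1 comparison, was 0.108. It was for Gclc with curcumin against diabetes without curcumin replicate 2. The neuron marker sum was likewise lower in all 4 diabetes libraries than in every other library, although Tubb3, which is in that sum, was not. The part of the sum in the Gclc values, and that of exon length in the sum, was not tested.

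Gclm (ENSMUSG00000028124), the modifier subunit that pairs with GCLC in the same enzyme, did not separate the groups. It had 57.6, 63.5 and 64.8 CPM in the curcumin libraries, 65.0 and 44.1 CPM in the garlic libraries, 64.5, 40.7, 39.9 and 46.4 CPM in the diabetes libraries, and 61.2, 64.8 and 50.6 CPM in the control libraries. Diabetes libraries 2, 3 and 4 were low, whereas diabetes replicate 1 was nearly as high as the highest libraries of the other groups. The log2 fold change was 0.37 ± 0.23 with curcumin against diabetes (95% interval -0.11 to 0.85, adjusted p = 0.440), 0.19 ± 0.26 with garlic against diabetes and -0.30 ± 0.23 with diabetes against control. Without diabetes replicate 1 the curcumin value was 0.55 and that of diabetes against control -0.48. The per-kilobase ratio of Gclc to Gclm averaged 1.59 ± 0.159 in the curcumin, 1.89 ± 0.201 in the garlic, 1.51 ± 0.218 in the diabetes and 1.55 ± 0.196 in the control libraries (SD). Both garlic libraries, at 1.75 and 2.03, exceeded all 4 diabetes libraries, which ran from 1.21 to 1.72. Among single genes, 13.2% of all genes lay higher without overlap with garlic against diabetes. This ratio was set side by side after its values were seen and was not tested.

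Slc7a11 (ENSMUSG00000027737), the cystine importer that supplies cysteine for glutathione, was the most variable of the more abundant members. It had 46.3, 28.6 and 60.9 CPM in the curcumin libraries, 62.5 and 50.3 CPM in the garlic libraries, 62.1, 26.1, 18.7 and 43.3 CPM in the diabetes libraries, and 58.0, 67.5 and 23.0 CPM in the control libraries. Its lowest libraries were diabetes replicates 3 and 2 and control replicate 3, the library poor in astrocyte transcripts. The coefficient of variation was 35.7% in curcumin, 15.2% in garlic, 51.5% in diabetes and 47.4% in control. Fitted log2 fold changes were 0.27 ± 0.39 with curcumin and 0.58 ± 0.43 with garlic against diabetes, and -0.40 ± 0.39 with diabetes against control (adjusted p = 0.812, 0.765 and 0.829). The curcumin value was -0.01 without curcumin replicate 3 and 0.62 without diabetes replicate 1. That of diabetes against control was -0.74 without control replicate 3 and -0.11 without control replicate 2.

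Gsr (ENSMUSG00000031584), the reductase that returns oxidised glutathione to its reduced form, had 25.2, 28.8 and 22.8 CPM in the curcumin libraries, 27.8 and 39.5 CPM in the garlic libraries, 35.0, 26.8, 33.6 and 24.4 CPM in the diabetes libraries, and 32.0, 26.9 and 28.7 CPM in the control libraries. The highest library was garlic replicate 2, and all groups overlapped. Its log2 fold change was -0.23 ± 0.24 with curcumin against diabetes, 0.17 ± 0.27 with garlic against diabetes and 0.04 ± 0.24 with diabetes against control. The difference of curcumin from garlic, -0.39 ± 0.29 (95% interval -0.99 to 0.21, unadjusted p = 0.185), was the largest of the 10 between those groups in either direction, and it was -0.12 without garlic replicate 2.

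Of the thioredoxin arm, Txnrd1 (ENSMUSG00000020250), the cytosolic thioredoxin reductase, was higher in both garlic libraries than in any diabetes library. It had 84.8, 66.6 and 68.7 CPM in the curcumin libraries, 83.8 and 79.1 CPM in the garlic libraries, 69.1, 63.1, 52.1 and 68.7 CPM in the diabetes libraries, and 87.6, 84.8 and 67.2 CPM in the control libraries. The curcumin and control groups each overlapped the diabetes group by their lower libraries. The log2 fold change was 0.21 ± 0.20 with curcumin against diabetes, 0.36 ± 0.23 with garlic against diabetes (95% interval -0.11 to 0.84, adjusted p = 0.659) and -0.34 ± 0.20 with diabetes against control (-0.76 to 0.09, adjusted p = 0.559). These signs held under every alternative run. The per-kilobase ratio of Txnrd1 to Gsr ran from 1.52 to 2.21 in the curcumin and 1.31 to 1.98 in the garlic libraries. It ran from 1.02 to 1.84 in the diabetes and 1.53 to 2.07 in the control libraries, so every pair of groups overlapped. In all, 2 of the 10 members, Gclc and Txnrd1, did not overlap upward with garlic against diabetes, a pattern that 13.2% of all genes shared.

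Srxn1 (ENSMUSG00000032802), sulfiredoxin, which repairs overoxidised peroxiredoxins, was the most abundant member. It had 100.3, 138 and 105 CPM in the curcumin libraries, 90.8 and 116 CPM in the garlic libraries, 96.4, 80.7, 123 and 88.3 CPM in the diabetes libraries, and 112, 109 and 76.6 CPM in the control libraries. The highest value came from curcumin replicate 2, the library with the lowest hypothalamic marker sum, and the lowest from control replicate 3. Its log2 fold change was 0.24 ± 0.22 with curcumin and 0.10 ± 0.25 with garlic against diabetes, and -0.04 ± 0.22 with diabetes against control. Without curcumin replicate 2 the curcumin value was 0.12.

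Hmox1 (ENSMUSG00000005413), the inducible haem oxygenase that splits haem into biliverdin, iron and carbon monoxide, rested on 18 to 123 counts a library. It had 3.88, 6.11 and 0.892 CPM in the curcumin libraries, 3.81 and 4.58 CPM in the garlic libraries, 2.61, 2.42, 5.31 and 3.51 CPM in the diabetes libraries, and 4.01, 3.70 and 2.36 CPM in the control libraries. Its lowest and highest values were both in the curcumin group, the highest again in curcumin replicate 2. Fitted log2 fold changes were 0.07 ± 0.72 with curcumin and 0.28 ± 0.80 with garlic against diabetes, and 0.04 ± 0.72 with diabetes against control. The 95% intervals ran from -1.43 to 1.57, from -1.41 to 1.97 and from -1.46 to 1.55. Differences within those intervals, in either direction, were not excluded at this depth and spread. Without curcumin replicate 2 the curcumin value was -0.50, and without curcumin replicate 3 it was 0.53.

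Nqo1 (ENSMUSG00000003849), the quinone reductase often used as a marker of NRF2 activity, was also low, at 48 to 254 counts a library. It had 2.27, 8.64 and 5.45 CPM in the curcumin libraries, 5.01 and 5.16 CPM in the garlic libraries, 8.97, 4.62, 5.48 and 6.93 CPM in the diabetes libraries, and 6.63, 3.32 and 4.81 CPM in the control libraries. The garlic libraries were nearly equal, while the curcumin libraries differed most among themselves, with curcumin replicate 2 the highest of that group. Its log2 fold change was -0.26 ± 0.55 with curcumin and -0.36 ± 0.63 with garlic against diabetes, and 0.40 ± 0.55 with diabetes against control (adjusted p = 0.885, 1 and 0.926). The curcumin value was -0.71 without curcumin replicate 2 and 0.11 without curcumin replicate 1.

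**Figure D2:**
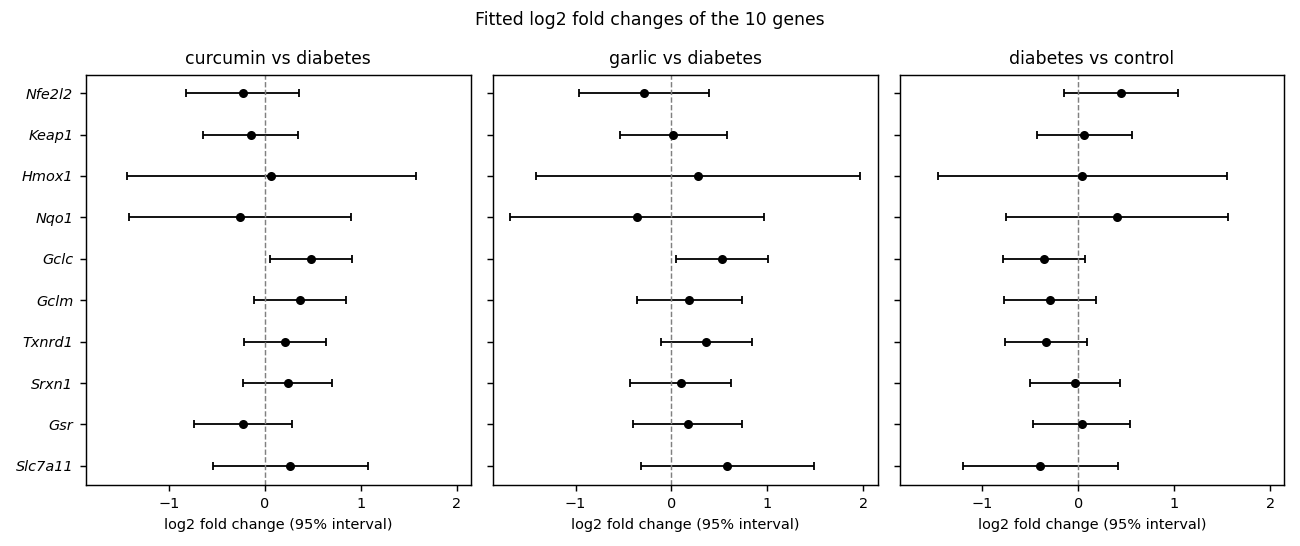
Fitted log2 fold changes of the 10 genes (horizontal axis) with 95% intervals, for curcumin against diabetes, garlic against diabetes and diabetes against control. The intervals of Gclc lie just above 0 with curcumin (0.05 to 0.91) and with garlic (0.05 to 1.00); all others, and Gclc in diabetes against control, include 0, and no adjusted p passed 0.05.

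Over the 10 genes the median log2 fold change was 0.14 with curcumin against diabetes, 0.18 with garlic against diabetes, 0.00 with diabetes against control and -0.10 with curcumin against garlic. The medians of all genes tested were 0.07, 0.07, -0.07 and 0.01 in the same comparisons. Positive values were found for 6 of 10 members with curcumin against diabetes (53.1% of all genes) and 8 of 10 with garlic against diabetes (53.7%). With diabetes against control they were found for 5 of 10 (45.9% of all genes). With the number of detected genes as a covariate in the fit, Keap1, Hmox1, Srxn1 and Gsr turned negative with garlic against diabetes. The lowest group mean was that of diabetes for 5 genes, namely Gclc, Gclm, Txnrd1, Srxn1 and Slc7a11. For Nfe2l2, Hmox1 and Nqo1 it was that of control, and for Keap1 and Gsr that of curcumin. The highest mean was that of garlic for 6 genes. No member passed the threshold in the 4 comparisons run, which do not include curcumin or garlic against control, so the order of the means is a description. The highest group mean was at most 1.50 times the lowest, for Slc7a11.

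Per kilobase of exon, levels differed between the genes far more than between the groups. Srxn1 was highest at 36.7 ± 6.40 CPM per kilobase (SD over the 12 libraries), and Txnrd1 followed at 17.9 ± 2.68 and Gclc at 15.7 ± 2.82. Keap1 had 13.0 ± 2.31, Gsr 11.0 ± 1.82 and Gclm 9.89 ± 1.83. From Txnrd1 to Gclm, each gene differs from the next by no more than the larger of their SDs. Nfe2l2 was lower at 6.92 ± 1.18, and Slc7a11 had 4.63 ± 1.77, Nqo1 3.61 ± 1.26 and Hmox1 2.29 ± 0.896 CPM per kilobase. The enzymes of the inducible response that serve most often as its markers, Nqo1 and Hmox1, were thus the least abundant of the 10 in this tissue.

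The genes whose profile over the 12 libraries was nearest to that of Nfe2l2 were not other members. The nearest of 11581 genes averaging at least 5 CPM were Naa80, Vrk3, Rcbtb2, Brf2 and Csk. Their mean absolute difference from Nfe2l2, in log2 CPM centred on each gene's mean, was 0.108, 0.112, 0.119, 0.121 and 0.124, where the median gene had 0.378. Of the members that reached 5 CPM, Srxn1 was nearest at 0.252, which placed it 1376th of 11580. The libraries share depth and composition differences that enter this measure.

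The other 90 genes of the pathway were then set beside the 10. EdgeR called 0 of them in each of the 4 comparisons. Counted before adjustment, at p under 0.05, 2 were higher and 19 lower with curcumin against diabetes (2.22% and 21.1% of the 90, against 10.5% and 6.71% of all genes). For garlic against diabetes 2 were higher and 20 lower (2.22% and 22.2%, against 6.90% and 4.03% of all genes). For diabetes against control 27 were higher and 1 lower (30% and 1.11%, against 4.79% and 7.48% of all genes). Between curcumin and garlic 1 was higher and 1 lower (1.11% each, against 0.462% and 1.13% of all genes). Their median log2 fold change was -0.29 with curcumin, -0.31 with garlic and 0.39 with diabetes against control. Other tools made calls among them. With curcumin against diabetes, DESeq2 called 10 of 90 lower (11.1%, against 2.95% of all genes) and limma-voom 0 of 90 (against 0.450%). With garlic against diabetes, DESeq2 called 10 lower of the 67 to which it gave an adjusted p (14.9%, against 4.33% of all genes) and limma-voom 6 of 90 (6.67%, against 1.40%). With diabetes against control, DESeq2 called 11 higher of 71 (15.5%, against 4.66%) and limma-voom 17 of 90 (18.9%, against 2.83%). Without curcumin replicate 2, edgeR called 16 of 90 lower with curcumin against diabetes (17.8%, against 4.76% of all genes) and 1 higher. Without both that library and diabetes replicate 4 it called 9, all lower (10%, against 3.09%), and 0 in the other comparisons. The counts before adjustment leaned on single libraries among the pathway genes and among all genes. For curcumin against diabetes, 21 pathway genes and 4387 of all genes became 36 and 6397 without curcumin replicate 2, and 13 and 2726 without curcumin replicate 1. For garlic against diabetes, 22 and 2796 became 7 and 1062 without garlic replicate 1. For diabetes against control, 28 and 3137 became 18 and 1933 without control replicate 1, 18 and 2578 without control replicate 3, 18 and 2654 without diabetes replicate 4, and 16 and 2389 without diabetes replicate 3.

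**Figure D3:**
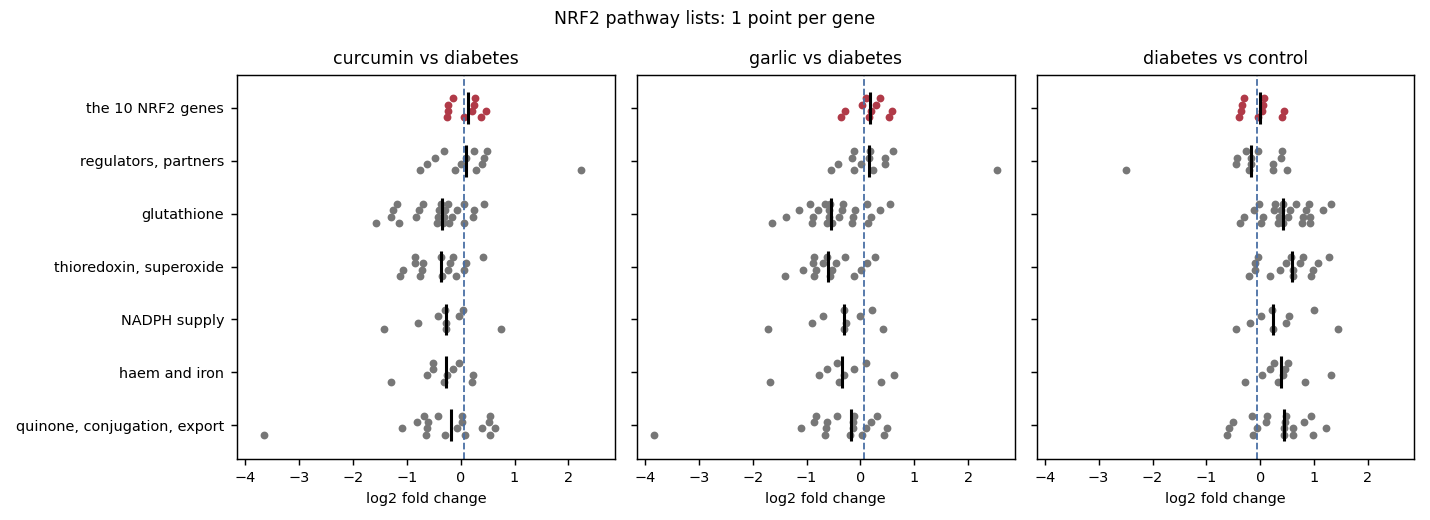
Log2 fold change (horizontal axis) of each gene of the 10 NRF2 genes (red) and the 6 other pathway lists (grey), 1 point per gene, with the list median as a black bar and the median of all genes tested as a dashed line. The glutathione and thioredoxin lists lie left of the dashed line against diabetes (medians -0.34 and -0.36 with curcumin, -0.55 and -0.60 with garlic) and right of it in diabetes against control (0.42 and 0.59), while the far points are Palb2 and Osgin1, which averaged 0.989 and 1.02 CPM.

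By role, the 13 regulators and partners had the medians nearest 0 of the 6 lists. These were 0.09 with curcumin against diabetes, 0.16 with garlic against diabetes and -0.17 with diabetes against control. Sqstm1, the autophagy adaptor that competes for KEAP1, averaged 617 ± 72.6 CPM with curcumin, 594 ± 78.3 CPM with garlic, 864 ± 172 CPM in diabetes and 612 ± 45.6 CPM in control, and its diabetes libraries lay above those of every other group, the lowest of them only just, at 688 CPM against 687 CPM in curcumin replicate 2. Groups apart in that direction were found for 4.19% of all genes with curcumin and 7.52% with garlic against diabetes, and for 5.78% with diabetes against control. Its log2 fold change was -0.48 with curcumin, -0.54 with garlic and 0.50 with diabetes against control (adjusted p = 0.265, 0.438 and 0.372). Mafk, a small MAF partner, had -0.75 with curcumin against diabetes, and Cul3, the ligase scaffold, had 0.45 with garlic against diabetes. Bach1, a repressor of the same elements, had -0.45 with diabetes against control.

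At an unadjusted edgeR p under 0.05, 6 of 24 glutathione genes were lower with curcumin (25%, against 6.71% of all genes). With garlic 7 were lower (29.2%, against 4.03%) and 1 higher (4.17%, against 6.90%). With diabetes against control 9 were higher (37.5%, against 4.79%). Gsto1, an omega-class glutathione transferase, averaged 21.7 ± 7.84 CPM with curcumin and 52.8 ± 13.7 CPM in diabetes, a log2 fold change of -1.29 ± 0.29 (adjusted p = 0.0687). Gpx4, which reduces lipid peroxides, averaged 41.3 ± 25.7 CPM with curcumin and 93.5 ± 20.0 CPM in diabetes (-1.18 ± 0.34, adjusted p = 0.124). Mgst1, a membrane-bound transferase, had a log2 fold change of -1.38 ± 0.41 with garlic against diabetes and 1.32 ± 0.36 with diabetes against control. Gstm5 had -1.15 ± 0.32 with garlic against diabetes and Gstp1 0.85 ± 0.25 with diabetes against control, both glutathione transferases.

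At the same cut, 6 of 16 thioredoxin, peroxiredoxin and superoxide genes were lower with curcumin (37.5%, against 6.71% of all genes). With garlic 5 were lower (31.2%, against 4.03%), and with diabetes against control 9 were higher (56.2%, against 4.79%). Prdx4, the peroxiredoxin of the endoplasmic reticulum, averaged 19.0 ± 5.46 CPM with curcumin, 15.6 ± 0.0769 CPM with garlic, 41.2 ± 17.6 CPM in diabetes and 16.9 ± 5.07 CPM in control. Its log2 fold changes were -1.12, -1.40 and 1.28 in the 3 comparisons (adjusted p = 0.139, 0.258 and 0.180). Sod1, the cytosolic superoxide dismutase, had -1.07 with curcumin against diabetes (adjusted p = 0.108). Txn2, mitochondrial thioredoxin, had -0.70 with garlic against diabetes, and Prdx2 had 0.79 with diabetes against control.

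Among 9 genes that supply NADPH, 1 was higher (11.1%, against 10.5% of all genes) and 2 lower (22.2%, against 6.71%) with curcumin. With garlic 3 were lower (33.3%, against 4.03%), and with diabetes against control 4 were higher (44.4%, against 4.79%). Pgls, the lactonase of the pentose phosphate pathway, averaged 40.0 ± 17.4 CPM with curcumin, 32.7 ± 7.75 CPM with garlic, 107 ± 38.4 CPM in diabetes and 39.6 ± 10.4 CPM in control. Its log2 fold changes were -1.42, -1.72 and 1.44 (adjusted p = 0.0834, 0.180 and 0.125), and its diabetes libraries lay above those of every other group, the pattern that 4.19%, 7.52% and 5.78% of all genes showed in those comparisons taken singly. G6pdx, the first enzyme of that pathway, lay the other way, at 0.76 ± 0.25 with curcumin against diabetes (adjusted p = 0.168). Tkt had -0.70 with garlic against diabetes and Taldo1 0.99 with diabetes against control, both enzymes of its later steps.

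Of 10 haem and iron genes, 1 was lower with curcumin (10%, against 6.71% of all genes). With garlic 1 was lower (10%, against 4.03%) and 1 higher (10%, against 6.90%). With diabetes against control 2 were higher (20%, against 4.79%). Blvrb, a biliverdin reductase that is abundant in red cells, had log2 fold changes of -1.28 with curcumin, -1.68 with garlic and 1.31 with diabetes against control (adjusted p = 0.157, 0.266 and 0.263). The blood marker sum was 122 to 504 CPM in curcumin, 115 to 154 CPM in garlic, 264 to 1758 CPM in diabetes and 92.5 to 196 CPM in control, and its part in the Blvrb values was not tested. The ferritin chains Fth1 and Ftl1 had -0.51 with curcumin against diabetes and 0.83 with diabetes against control, in that order. Tfrc, the transferrin receptor, had 0.62 with garlic against diabetes. Of 18 quinone, carbonyl, conjugation and export genes, 1 was higher (5.56%, against 10.5% of all genes) and 3 lower (16.7%, against 6.71%) with curcumin. With garlic 3 were lower (16.7%, against 4.03%). With diabetes against control 2 were higher (11.1%, against 4.79%) and 1 lower (5.56%, against 7.48%). Akr7a5, an aldo-keto reductase, had -1.09, -1.10 and 0.99 in the 3 comparisons. Cbr1, a carbonyl reductase, had -0.68 with curcumin and -0.83 with garlic against diabetes, and Akr1a1 0.61 with diabetes against control.

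These differences moved with transcript length. Genes averaging at least 1 CPM were split by summed exon length into 3 classes of like number, of 59 to 2192, 2193 to 4115 and 4116 to 123179 bases. The median log2 fold change of all genes in the short, middle and long class was -0.41, 0.05 and 0.36 with curcumin against diabetes, -0.34, 0.04 and 0.32 with garlic against diabetes, and 0.32, -0.03 and -0.30 with diabetes against control. Of 99 pathway genes so split, the members included, 45 were short. Positive values with curcumin against diabetes were held by 3 of 45 short, 14 of 35 middle and 16 of 19 long pathway genes. In garlic against diabetes these were 5, 13 and 16, and in diabetes against control 42, 23 and 5. The pathway medians in the short, middle and long class were -0.62, -0.14 and 0.23 with curcumin against diabetes. They were -0.63, -0.14 and 0.18 with garlic against diabetes, and 0.60, 0.24 and -0.21 with diabetes against control. In each class they lay below the median of all genes with either treatment against diabetes, and above it with diabetes against control. Of the members, Hmox1 and Nqo1 are short, Nfe2l2, Srxn1, Txnrd1, Gsr and Gclc middle, and Slc7a11, Gclm and Keap1 long. Centred on the median of its class, Gclc had log2 fold changes of 0.43 with curcumin, 0.48 with garlic and -0.33 with diabetes against control. Gclm, so centred, had 0.01, -0.14 and 0.00 in those comparisons. The part of transcript length in the pathway values was not tested.

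**Figure D4:**
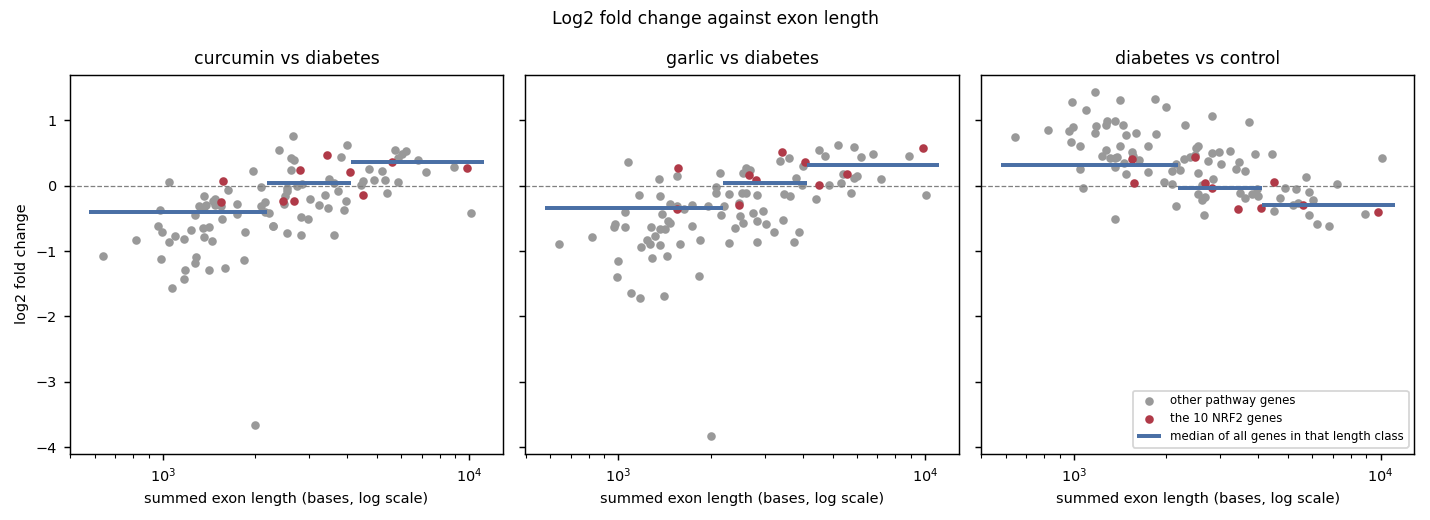
Log2 fold change (vertical axis) against summed exon length in bases (horizontal axis, log scale) for the 10 NRF2 genes (red) and the other pathway genes averaging at least 1 CPM (grey); blue bars are the medians of all genes in each of the 3 length classes. Blue bars climb with length with curcumin (-0.41 to 0.36) and garlic (-0.34 to 0.32) against diabetes. They descend in diabetes against control (0.32 to -0.30). The medians of the pathway genes, members included, change with length in the same directions but are offset from the bars. In the short class they are -0.62 with curcumin, -0.63 with garlic and 0.60 with diabetes against control.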

How the data were processed

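Bulk RNA was measured in 12 hypothalamus libraries. The authors deposited 1 table of unnormalised counts of reads for each gene. Per the labels' protocols, RNA of integrity number above 7 went into stranded poly-A libraries, read as pairs of 150 bases. Per the submitters' processing notes, FastQC, featureCounts and the GRCm39 genome were used. Not given in the sources used here are aligner, annotation release, strand setting and handling of multiply mapping reads, so overlapping genes and genes with close copies, such as glutathione transferases, ferritins and peroxiredoxins, are uncertain.

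Symbols were found for 51486 of 78334 gene IDs (65.7%, with 97.8% of counts). Exon lengths came from GENCODE M21 on GRCm38 and promoter windows from RefSeq on GRCm38.p6; no coordinates were converted. Groups came from the sample titles. The most similar pair of libraries, control replicates 1 and 2, had a chi-square of 19.0 per degree of freedom, so none was taken for 1 library deposited as 2. Control replicate 1 and garlic replicate 1 also had 19.0, and control replicate 3 and garlic replicate 2 had 24.7. The 2 garlic libraries had 56.6, so each was nearer to a control library than to the other. EdgeR 4.0.16 (R 4.3.3) fitted the 12 libraries together, with TMM scaling, filterByExpr by group, which kept 25562 genes, and glmQLFTest, two-sided. Standard errors are the log2 fold change over the root of F, and intervals are 95%. The biological coefficient of variation was 0.808. The procedure was tested on simulated data. Alternatives used DESeq2 1.42.0, limma-voom 3.58.1, other filters and scaling, and left-out libraries. Named were all 10 members in every comparison, and of each other pathway list any gene past the threshold plus, per comparison, the 2 of smallest p averaging at least 1 CPM. The 10 genes, the lists and the alternatives were chosen with earlier results of these data known; centring by exon length was added after seeing the data. Transcript level alone was measured, so NRF2 protein is not covered.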

Additional observations from a re-analysis of the deposited data

How the results depend on the processing

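None of the 10 members was called in any of the 610 alternative estimates, and 20 of the 40 member differences kept their sign in all of these. Centring on exon length is not among the 610. It turned Gclm with diabetes against control, which is counted in those 20. Each estimate is of 1 gene in 1 comparison under 1 setting. They come from overlapping fits of the same 12 libraries and are not independent, and DESeq2 gave some of them no adjusted p. The calls among all genes moved far more. With curcumin against diabetes, 23 genes were called as reported, 123 with RLE scaling, 1059 with DESeq2, 123 with limma-voom and library weights, 1128 without a filter on low counts, 2 among genes averaging at least 1 CPM, 376 with the number of detected genes as a covariate and 1064 with diabetes replicate 4 and curcumin replicate 2 left out. In garlic against diabetes, 0 were called as reported, 432 with DESeq2, 429 with limma-voom, 356 without a filter, 7 with only the 2 groups compared and 1 with both libraries left out. In diabetes against control, 4 were called as reported, 528 with DESeq2, 1177 with limma-voom, 468 without a filter, 0 among genes averaging at least 1 CPM, 354 with only the 2 groups compared, 0 with the covariate and 1 with both libraries left out. In curcumin against garlic, 0 were called as reported, 7 with DESeq2, 45 without a filter and 3 with both libraries left out. The cause was not tested.

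Of the 90 other pathway genes, 0 were called as reported. With curcumin against diabetes, 1 was called with RLE scaling, 10 with DESeq2, 8 without a filter, 3 with the covariate and 9 with both libraries left out. In garlic against diabetes, 10 were called with DESeq2, 6 with limma-voom and 4 without a filter. In diabetes against control, 11 were called with DESeq2, 17 with limma-voom, 7 without a filter and 3 with only the 2 groups compared.

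Leaving out 1 library at a time gave 1 to 1974 called genes with curcumin against diabetes, the highest without curcumin replicate 2, 0 to 1 with garlic against diabetes, 0 to 1 with diabetes against control and 0 to 23 with curcumin against garlic. For the pathway genes it gave 0 to 17, 0 to 0, 0 to 0 and 0 to 0 in that order. Leaving out a garlic library leaves 1, which is then assumed to vary like the other groups.

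Replicate numbers are shared between groups, and the labels do not say that they pair the libraries. The correlations below cannot settle it, because the groups are small and the 2 garlic libraries have deviations that mirror each other. Deviations from the group means of same-numbered libraries correlated at 0.058, -0.131 and -0.056 between curcumin and diabetes, 0.119 and -0.028 between garlic and diabetes, 0.014, 0.018 and 0.026 between diabetes and control, and 0.180 and 0.186 between curcumin and garlic. With the replicate block, 47 genes were called with curcumin against diabetes, 1 with garlic against diabetes and 1 with diabetes against control, and no member or pathway gene was called. Under the block Srxn1 turned to 0.019 with diabetes against control and Hmox1 to -0.15 with curcumin against diabetes.

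Signs of member differences turned as follows. Not all were near 0 as reported, where Gclm was -0.30 with diabetes against control and Hmox1 0.28 with garlic against diabetes. With curcumin against diabetes, Hmox1 was -0.79 with limma-voom, -0.28 with the covariate and -0.49 with both libraries left out. In garlic against diabetes, Keap1 was -0.029 with RLE scaling, -0.028 with DESeq2, -0.001 among genes averaging at least 1 CPM and -0.46 with the covariate, and with the covariate Hmox1 was -0.77, Srxn1 -0.32 and Gsr -0.23. In diabetes against control, Srxn1 was 0.019 with RLE scaling and with DESeq2 and 0.23 with the covariate. Hmox1 was -0.14 with limma-voom, -0.031 with only the 2 groups compared and -0.039 with both libraries left out. Gsr was -0.04 with limma-voom and -0.035 with only the 2 groups compared, where Keap1 was -0.012. With curcumin against garlic, Nqo1 was -0.004 with limma-voom and -0.45 with both libraries left out, where Nfe2l2 was -0.038 and Srxn1 -0.066, and with the covariate Keap1 was 0.18 and Hmox1 0.49. Centred on genes of like exon length, a choice made after seeing the data, Nqo1 was 0.15 and Slc7a11 -0.10 with curcumin against diabetes, Keap1 -0.31 and Gclm -0.14 with garlic against diabetes, and Hmox1 -0.27 and Gclm 0.002 with diabetes against control. The median of all genes itself moved by over 0.1 in some fits. It was -0.32 with limma-voom, -0.19 with the block and 0.07 with the covariate for diabetes against control, as reported -0.07. For garlic against diabetes it was 0.33 with limma-voom and -0.13 with the covariate, as reported 0.07, and for curcumin against garlic -0.14 with limma-voom, as reported 0.01.

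Leaving out 1 library turned 18 of the 40 member differences, in 31 estimates. With curcumin against diabetes the ranges were -0.23 to 0.027 for Keap1, -0.50 to 0.53 for Hmox1, -0.71 to 0.11 for Nqo1 and -0.006 to 0.62 for Slc7a11. With garlic against diabetes they were -0.068 to 0.19 for Keap1, -0.12 to 0.44 for Gclm, -0.10 to 0.26 for Srxn1 and -0.11 to 0.40 for Gsr. With diabetes against control they were -0.12 to 0.21 for Keap1, -0.24 to 0.19 for Hmox1, -0.19 to 0.06 for Srxn1 and -0.049 to 0.12 for Gsr. With curcumin against garlic they were -0.038 to 0.12 for Nfe2l2, -0.87 to 0.25 for Hmox1, -0.45 to 0.47 for Nqo1, -0.21 to 0.14 for Gclc, -0.07 to 0.49 for Gclm and -0.066 to 0.34 for Srxn1. Hmox1 and Nqo1 had the widest intervals and the fewest counts of the 10.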
